A study of Mus musculus with 10 samples.

Results

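Transcripts of 85 cytosolic ribosomal protein genes were followed in spermatogenic cells from mouse testes at postnatal day 18. The 85 were all gene names of the deposited count files, out of 23420, that have the form Rpl or Rps with a number, Rplp0 to Rplp2, or Rpsa, without the S6 kinase genes and provisional pseudogene names. They comprise 52 proteins of the large subunit (Rpl and Rplp) and 33 of the small subunit (Rps and Rpsa). Among them are 8 paralogs, which are second copies of a ribosomal protein gene: Rpl10l, Rpl39l, Rpl36al, Rps4y2, Rpl22l1, Rpl3l, Rps27l and Rpl7l1. Rps4y2 is named Rps4l in RefSeq and is annotated as a transcribed pseudogene there; it has the form of a member's name and was kept. PolyA RNA libraries numbered 10 in all, with 5 of Ino80WT and 5 of Ino80cKO, all from postnatal day 18 and all of mixed background. In Ino80cKO mice the chromatin remodeller gene Ino80 was deleted in the testis with Stra8-Cre, a recombinase driven from a promoter active in male germ cells. The labels do not tell whether the Ino80WT mice carried Cre or floxed alleles. The cells were released from seminiferous tubules with collagenase and trypsin and passed through a fine filter, and no sorting is described, so somatic cells of the testis can be present.

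A ribosome is built from ribosomal RNA and a copy of nearly every ribosomal protein, and its protein genes are among the most actively transcribed of growing cells. Several ribosomal protein genes lie on the X chromosome, which is transcriptionally silenced in male germ cells once they enter pachytene of meiotic prophase. For some of them an autosomal copy, made by reverse transcription of the parent's mRNA and so lacking its introns, is expressed in the testis; Rpl10l and Rpl39l are the best known of these. RPL10 lies at the joint between the subunits near the site of peptide bond formation, and RPL39 lines the tunnel through which the new peptide leaves.

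The coding sequences of these pairs show how far reads of a copy and its parent can be told apart, and that is why they are printed here. Each is given on the coding strand from the start codon, 5′ to 3′, from the GENCODE transcripts of GRCm38, and capitals mark the bases at which copy and parent differ. The first 150 of 642 coding bases are given for Rpl10l (chr12:66283716-66284357, minus strand, 1 coding exon) and Rpl10 (chrX:74271002-74273064, plus strand, 6 coding exons), where 25 bases differ.
Rpl10l: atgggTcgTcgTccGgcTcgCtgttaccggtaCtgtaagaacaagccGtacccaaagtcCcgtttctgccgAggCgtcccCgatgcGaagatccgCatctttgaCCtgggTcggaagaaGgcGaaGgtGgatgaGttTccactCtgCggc
Rpl10: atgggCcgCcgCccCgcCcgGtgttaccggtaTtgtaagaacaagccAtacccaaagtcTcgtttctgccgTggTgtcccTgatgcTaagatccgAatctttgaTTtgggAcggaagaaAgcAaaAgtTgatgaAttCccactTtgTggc
All 153 coding bases are given for Rpl39l (chr16:10174310-10174462, plus strand, 1 coding exon) and Rpl39 (chrX:37082704-37085127, minus strand, 3 coding exons), where 23 bases differ.
Rpl39l: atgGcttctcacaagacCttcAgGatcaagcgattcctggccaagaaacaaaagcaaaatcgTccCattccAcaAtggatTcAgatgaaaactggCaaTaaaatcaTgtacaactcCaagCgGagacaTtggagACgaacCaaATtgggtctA
Rpl39: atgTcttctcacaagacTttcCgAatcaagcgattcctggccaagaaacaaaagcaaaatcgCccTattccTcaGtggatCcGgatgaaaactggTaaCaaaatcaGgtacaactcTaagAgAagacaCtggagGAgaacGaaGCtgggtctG
Over their whole coding sequences Rpl10l and Rpl10 differed at 98 of 642 bases (84.7% identity), and the longest run shared by both was 23 bases. Rpl39l and Rpl39 were 85.0% identical with a longest shared run of 38 bases, and Rpl36al and Rpl36a were 87.7% identical over 318 bases with a longest shared run of 24. Rps4y2 and Rps4x were 78.0% identical over their aligned transcripts. The labels give no read length, so how many reads fell within such shared runs was not tested.

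The libraries held 16750609 to 23700094 counts in genes, and 3 counts, taken as the floor of detection, equal 0.127 to 0.179 CPM; this floor reflects counting error alone. CPM is the count of a gene relative to a fixed total of counts, here after scaling libraries by TMM factors, a method that sets most genes level between libraries. Nothing in the labels ties a library to an animal of its own, and p-values therefore refer to the spread between libraries. Ino80 itself was at 75.8, 101, 110, 93.0 and 94.7 CPM in Ino80WT libraries 1 to 5 and at 94.4, 94.7, 96.9, 97.4 and 96.7 CPM in Ino80cKO libraries 1 to 5. Its groups overlapped and its log2 difference was 0.02 (adjusted p = 0.889, edgeR quasi-likelihood test); the labels do not give the part of the gene that was deleted, so counts over the whole gene do not check the genotype, and Ino80WT and Ino80cKO are used below as the labels of the libraries. Of 15265 genes tested, 2793 were higher and 4220 lower in Ino80cKO. Of 12 markers of pachytene spermatocytes, 12 were lower, with a median log2 difference of -1.62. Their summed level was 3225 to 5714 CPM in Ino80WT and 1088 to 1946 CPM in Ino80cKO. Sertoli cell markers were higher in 5 of 11 and lower in none, and leukocyte markers were higher in 6 of 8. The part of these shifts in the differences below was not tested. In whole-cell preparations of this kind, fewer cells of a type and less RNA per cell cannot be told apart.

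Ribosomal protein transcripts were lower in Ino80cKO for most members. Of the 84 members with enough counts to be tested, 58 fell, 2 rose (Rpl10 and Rpl34) and 24 were not called at an adjusted p below 0.05, the threshold used throughout. The share called lower among all genes tested was 27.6%, and the share called higher was 18.3%. In 52 members every Ino80cKO library was below every Ino80WT library, against 22.0% of all genes, and in 0 members was every Ino80cKO library above, against 9.96%. The median log2 difference (Ino80cKO over Ino80WT) was -0.35 over the 84 members and 0.02 over all genes. Single members ranged from -1.14 for Rpl39l to 0.47 for Rpl34. Apart from Rpl39l, no member fell by 2-fold or more, against 7.72% of all genes. Strongly expressed genes were more often lower in general: of 7105 genes with an average log2 CPM of at least 5, 36.3% were lower, with a median of -0.07, while 79 members reached that level and 58 of them were lower.

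**Figure D1:**
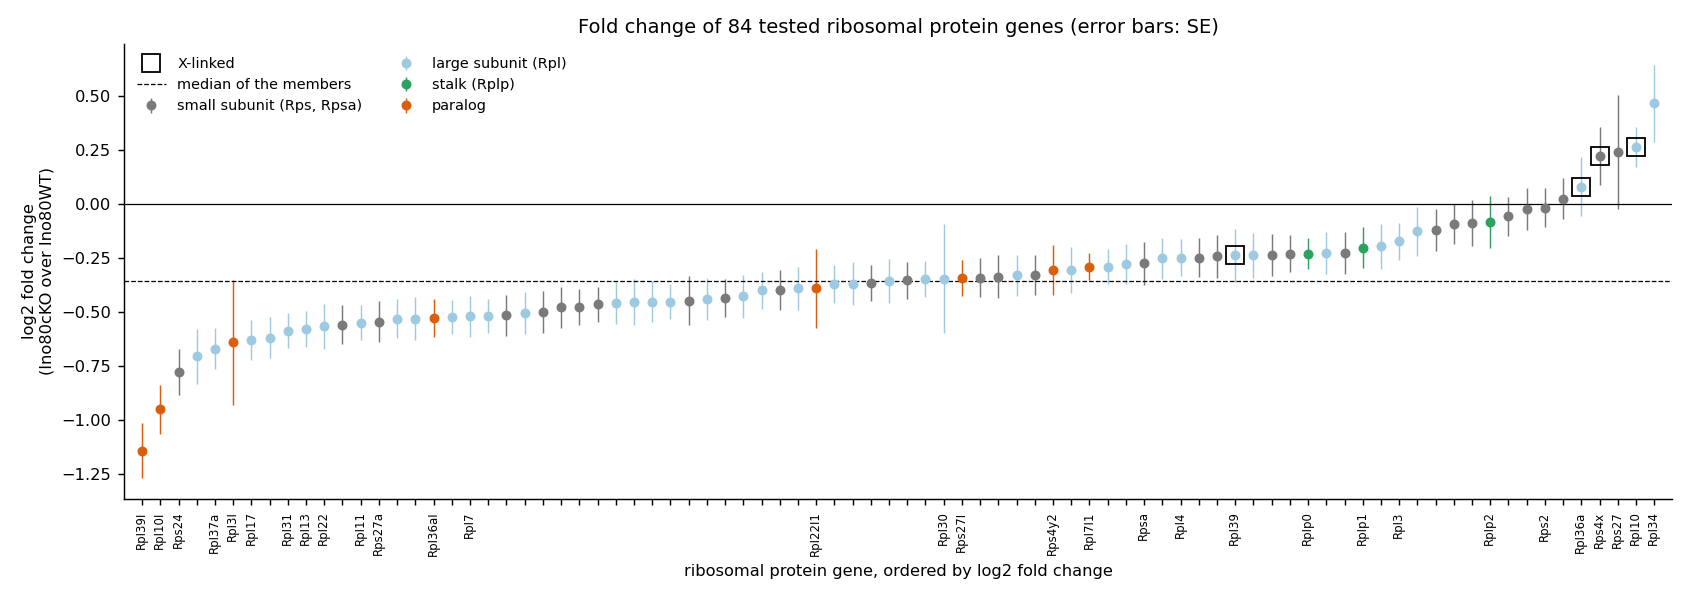
Log2 difference between Ino80cKO and Ino80WT (y axis, Ino80cKO over Ino80WT, edgeR) for each of the 84 tested ribosomal protein genes (x axis, ordered by the difference, with the genes of the naming rule labelled), with SE as error bars; colours mark the subunit or paralog class and squares the X-linked genes. Rpl39l (-1.14) and Rpl10l (-0.95) lie lowest, the dashed median is at -0.35, and 3 of the 4 X-linked genes lie above 0.

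Ino80WT library 1 stood above the other control libraries for these genes. It was the highest of the 10 libraries for 76 of the 80 members that reached 10 CPM in either group. The summed level of all 85 members was 27630 CPM in Ino80WT 1 and 20696 to 22011 CPM in the other Ino80WT libraries, while the Ino80cKO libraries ran from 16737 to 19323 CPM without reaching any of them. As a plain share of gene counts, with no scaling factor, the members took 2.15% ± 0.286 (SD, n = 5) in Ino80WT and 1.90% ± 0.120 (SD, n = 5) in Ino80cKO; these shares overlapped, since the lowest Ino80WT library was at 1.93% and the highest Ino80cKO library at 2.06%. Ino80WT 1 also held the largest share of the ribosomal RNA precursor Rn45s, 7.08% of its gene counts, where the other libraries held 1.60% to 4.66%. Without Ino80WT 1, 51 members were lower, 3 were higher and the median was -0.25; without Ino80WT 1 and 2, 46 were lower and 3 higher. When libraries were scaled by their total counts in place of TMM factors, the median of all genes moved up by 0.17 and that of the members to -0.18, so that the members stayed 0.37 below all genes, but 32 members were then called lower and 3 higher. The same scaling turned the calls over all genes from 2793 higher and 4220 lower to 5484 higher and 2938 lower. Across 17 alternative settings, 32 members were called lower in each one and 0 were called higher in each one.

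**Figure D2:**
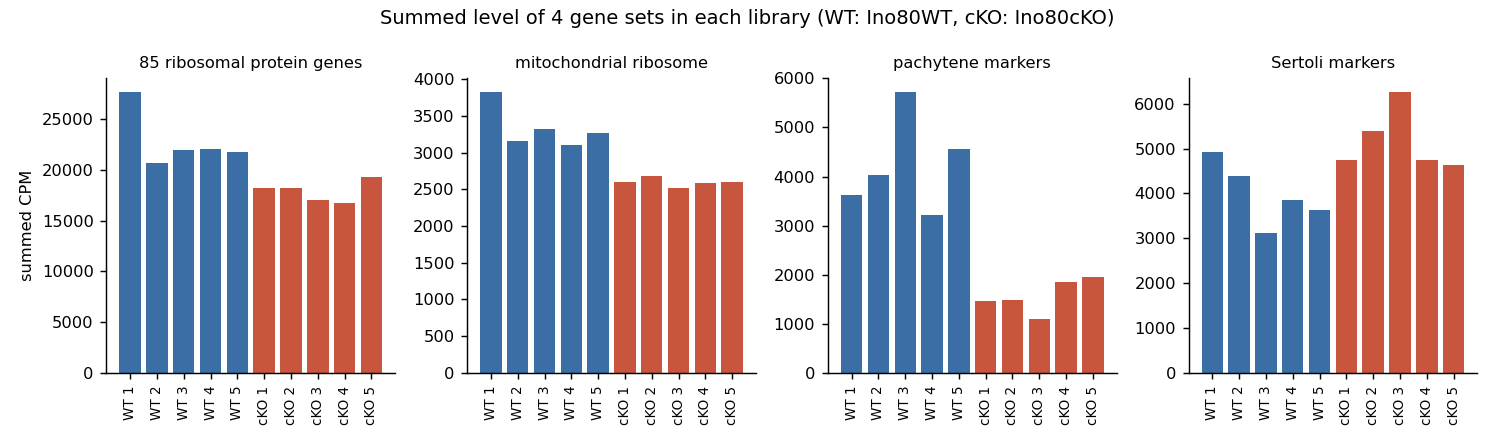
Summed level in CPM (y axis, from 0) in each of the 10 libraries (x axis; blue Ino80WT, red Ino80cKO) for the 85 ribosomal protein genes, the 76 mitochondrial ribosomal protein genes, 12 pachytene markers and 11 Sertoli markers. Ino80WT 1 is highest for the ribosomal protein genes at 27630 CPM, and all Ino80cKO libraries lie below all Ino80WT libraries in the first 3 panels.

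Rpl10l was at 163, 143, 150, 129 and 141 CPM in Ino80WT libraries 1 to 5 and at 79.4, 74.6, 54.2, 81.1 and 86.7 CPM in Ino80cKO libraries 1 to 5. Every Ino80cKO library lay well below every Ino80WT library, with Ino80cKO 3 lowest. The mean fell from 145 ± 12.6 to 75.2 ± 12.5 CPM (SD, n = 5), 1.93-fold lower (log2 -0.95 ± 0.11 SE, adjusted p = 8.53e-05). Its X-linked parent Rpl10 went the other way. Rpl10 was at 169, 136, 115, 146 and 138 CPM in Ino80WT and at 177, 174, 164, 156 and 175 CPM in Ino80cKO, and the groups overlapped only through Ino80WT 1. Its rise from 141 ± 19.7 to 169 ± 8.99 CPM (SD, n = 5; log2 0.27 ± 0.09 SE, adjusted p = 0.0332) was lost when any of 6 libraries was left out (Ino80WT 2, 3 or 5, or Ino80cKO 1, 2 or 5), with log2 0.20 to 0.26 and adjusted p up to 0.0736. Within each library the number of Rpl10l reads for each Rpl10 read does not depend on library scaling. On the log2 scale this ratio was -0.05, 0.07, 0.39, -0.18 and 0.02 in Ino80WT and -1.16, -1.23, -1.59, -0.94 and -1.01 in Ino80cKO. The copy and its parent were thus counted about equally in Ino80WT, and the parent exceeded the copy in all 5 Ino80cKO libraries. The difference in mean log2 ratio was -1.24 ± 0.15 SE, a 2.36-fold fall (adjusted p = 0.0159, exact two-sided permutation test, Benjamini-Hochberg over 8 pairs); 0.00794 is the smallest unadjusted p that assignments of 10 libraries to 2 groups of 5 can give.

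Rpl39l, the other testis copy named in the rule for these genes, showed the largest fall of all members. It was at 120, 101, 127, 94.6 and 108 CPM in Ino80WT and at 49.1, 46.8, 37.0, 56.1 and 60.5 CPM in Ino80cKO. The groups were far apart, and Ino80cKO 3 was again lowest. The mean fell from 110 ± 13.4 to 49.9 ± 9.05 CPM (SD, n = 5), 2.21-fold lower (log2 -1.14 ± 0.13 SE, adjusted p = 6.22e-05). Its parent Rpl39 was at 62.7, 42.3, 42.1, 57.6 and 56.7 CPM in Ino80WT and at 50.4, 47.5, 42.5, 39.4 and 41.9 CPM in Ino80cKO. These overlapped, and the difference of -0.24 was not called (adjusted p = 0.126, 95% interval -0.47 to 0.00), except without Ino80WT 3 (-0.31, adjusted p = 0.0469). The log2 ratio of Rpl39l to Rpl39 fell from 1.08 ± 0.34 to 0.16 ± 0.34 (SD, n = 5), a difference of -0.93 (adjusted p = 0.0159, exact permutation test). Rpl10l and Rpl39l were called lower in all 17 alternative settings, with log2 differences of -1.0 to -0.77 and of -1.22 to -0.96.

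**Figure D3:**
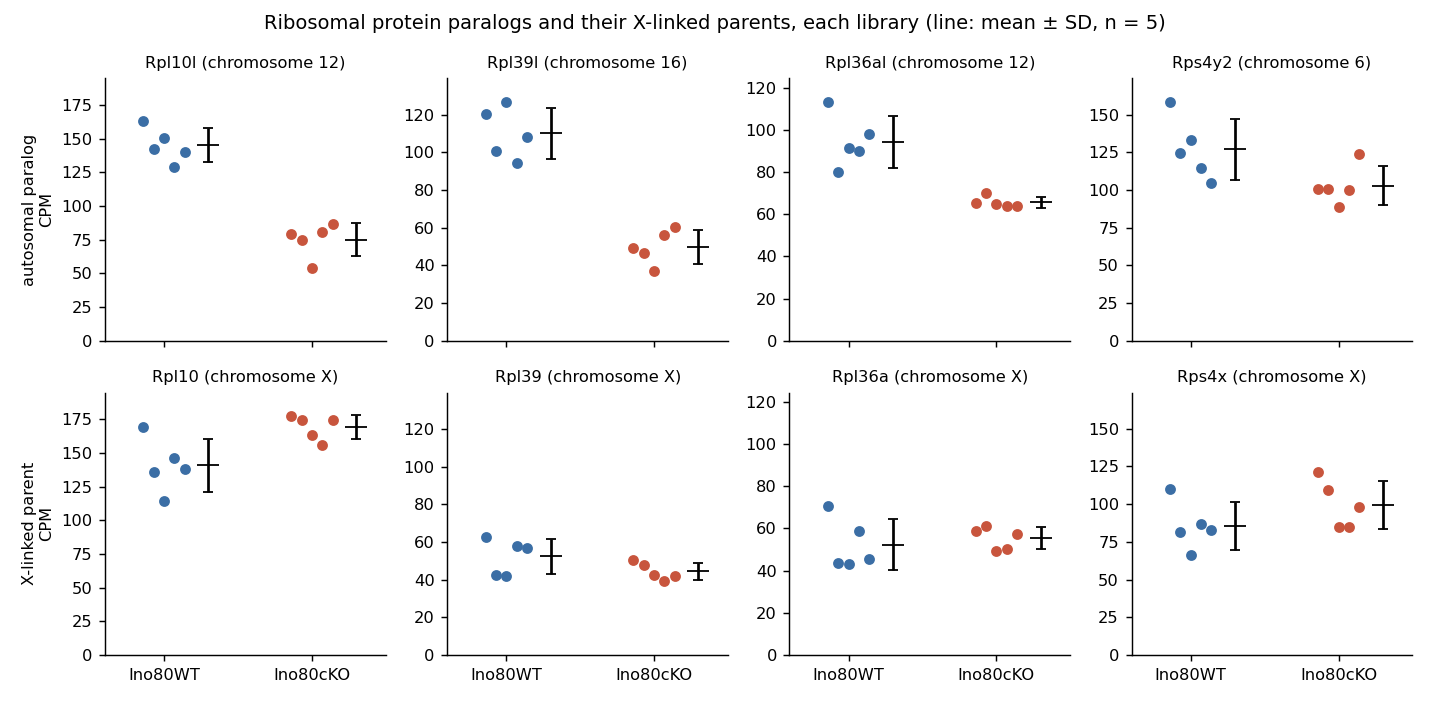
Level in CPM (y axes, from 0, shared within a pair) of 4 paralogs (upper panels) and their X-linked parents (lower panels) in each Ino80WT (blue) and Ino80cKO (red) library, with the mean and SD (n = 5). Rpl10l, Rpl39l and Rpl36al separate by genotype, Rps4y2 and all 4 parents overlap.

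Rpl36al and Rps4y2 also have parents on the X chromosome. Rpl36al, the autosomal copy of the large subunit gene Rpl36a, was at 113, 79.9, 91.2, 89.9 and 98.3 CPM in Ino80WT and at 65.4, 70.2, 64.9, 63.9 and 63.9 CPM in Ino80cKO. All Ino80cKO libraries were lower, in a narrow band, and the mean fell by 0.52 on the log2 scale (adjusted p = 0.00051). Rpl36a itself was at 52.3 ± 12.1 and 55.3 ± 5.19 CPM (SD, n = 5) and was not called (log2 0.08, adjusted p = 0.639, 95% interval -0.18 to 0.35). The log2 ratio of Rpl36al to Rpl36a differed by -0.62 and did not overlap between groups (adjusted p = 0.0159, exact permutation test). Rps4y2 was at 158, 124, 133, 115 and 105 CPM in Ino80WT and at 100, 101, 88.6, 100 and 124 CPM in Ino80cKO, so that the groups overlapped through Ino80cKO 5. Its fall of 0.30 on the log2 scale (adjusted p = 0.0448) passed the test in 3 of 17 alternative settings, and it was lost without Ino80WT 1, 2 or 3 or without Ino80cKO 1, 2, 3 or 4 (log2 -0.31 to -0.19, adjusted p up to 0.136). Rps4x, which encodes a small subunit protein, was at 85.4 ± 15.7 and 99.5 ± 15.8 CPM (SD, n = 5), a log2 difference of 0.22 that was not called (adjusted p = 0.19, 95% interval -0.04 to 0.49). Rps4x was called higher without Ino80WT 1 (log2 0.35, adjusted p = 0.0341) and with libraries scaled by total counts (0.39, adjusted p = 0.036). The log2 ratio of Rps4y2 to Rps4x was 0.53, 0.61, 1.01, 0.40 and 0.34 in Ino80WT and -0.27, -0.12, 0.06, 0.24 and 0.34 in Ino80cKO. The lowest Ino80WT value and the highest Ino80cKO value, both from libraries numbered 5, were nearly equal, and the difference was -0.53 (adjusted p = 0.0159, exact permutation test).

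Levels per length of transcript put different genes on a common scale. They remain uncertain, since reads that aligned to more than 1 place were not counted. Rpl10l stood at 142 CPM per kilobase and Rpl10 at 165 in Ino80WT, and at 73.5 and 198 in Ino80cKO. The level of the copy per level of the parent thus went from 0.862 to 0.371. For Rpl39l this ratio of levels per kilobase went from 1.60 to 0.856, for Rpl36al from 0.684 to 0.449 and for Rps4y2 from 1.54 to 1.07. Lengths were those of 1 annotated principal transcript per gene, which need not be the main form in these cells.

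The other 4 paralogs have autosomal parents, and of their ratios 0 passed as lower in Ino80cKO and 1 passed as higher. Rpl22l1, a paralog of the RNA-binding large subunit protein Rpl22, was at 14.1 ± 2.09 and 10.7 ± 2.92 CPM (SD, n = 5) and was not called (log2 -0.39, adjusted p = 0.0967) except without Ino80cKO 1 (-0.51, adjusted p = 0.0452), while Rpl22 fell from 198 ± 33.1 to 134 ± 7.78 CPM (log2 -0.57, adjusted p = 0.000916). Their ratio differed by 0.13 (adjusted p = 0.579, exact permutation test). Rpl7l1 fell by 0.29 on the log2 scale (adjusted p = 0.00311) and Rpl7 by 0.52 (adjusted p = 0.000961), so that the ratio of copy to parent was higher in Ino80cKO by 0.23 (adjusted p = 0.0254, exact permutation test). This call of the ratio was lost without Ino80WT 1, 2 or 5 or Ino80cKO 3. Under total counts, total counts without Rn45s and upper-quartile scaling the fall of Rpl7l1 was not called (log2 -0.11, -0.13 and -0.16). In the same 3 settings Rps27l was not called either (log2 -0.17, -0.19 and -0.21). Rps27l, known as a target of the tumour suppressor p53, fell from 83.6 ± 10.5 to 66.0 ± 1.54 CPM (SD, n = 5; log2 -0.34, adjusted p = 0.00588). Its parent Rps27 was counted at only 0.543 to 1.28 CPM in all libraries, and their ratio (difference -0.55, adjusted p = 0.169, exact permutation test) passed when Ino80WT 3 (-0.71, adjusted p = 0.0454) or Ino80cKO 5 (-0.77, adjusted p = 0.0317) was left out. Rpl3l, the striated muscle paralog of Rpl3, was at 0.754 to 2.28 CPM in Ino80WT and 0.741 to 1.09 CPM in Ino80cKO. It was not called (adjusted p = 0.0871) except without Ino80WT 3 (log2 -0.81, adjusted p = 0.0246), and neither was its ratio to Rpl3, which differed by -0.36 (adjusted p = 0.272, exact permutation test) and passed without Ino80WT 3 (-0.55, adjusted p = 0.0423).

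The pattern of Rpl10l and Rpl39l was set beside 9 other pairs, chosen with earlier results of these data known. Each holds an autosomal copy and its X-linked parent and encodes no ribosomal protein. Of these, 8 had a lower ratio of copy to parent in Ino80cKO, each with adjusted p = 0.00893 (exact permutation test, Benjamini-Hochberg over 9 pairs), and 0 had a higher one. The differences in log2 ratio were -2.03 for Cetn1, a centrin, -2.01 for Pgk2 and -1.52 for Pdha2, enzymes of glycolysis and of pyruvate oxidation, and -1.91 for Fam50b. They were -1.66 for Gykl1, -1.39 for Naa11, -1.07 for Rbmxl2 and -0.57 for Cstf2t. Utp14b, a factor of small subunit assembly, was the exception at -0.29 (adjusted p = 0.214), though it passed without Ino80WT 1 (-0.48, adjusted p = 0.0159). The median difference was -1.52 over the 9 pairs, and Rpl10l (-1.24) and Rpl39l (-0.93) lay within their range. A ratio also falls when the parent rises. The parents Pgk1, Pdha1, Cetn2, Cstf2, Rbmx and Naa10 were called higher (log2 0.34, 0.39, 0.36, 0.29, 0.42 and 0.45). Such rises were common on the X chromosome: of all 599 X-linked genes tested, 296 were called higher, and their median was 0.34. The calls of Pgk1 and Rbmx held in only 11 and 9 of 17 alternative settings. Gyk, Fam50a and Utp14a were not called. The copies of the 8 pairs fell by 0.29 (Cstf2t, not called under total counts) to 1.75 (Pgk2). Pgk2 and Cetn1 are also on the pachytene marker list, which fell in 12 of 12; its part in the falls of Rpl10l and Rpl39l was not tested.

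**Figure D4:**
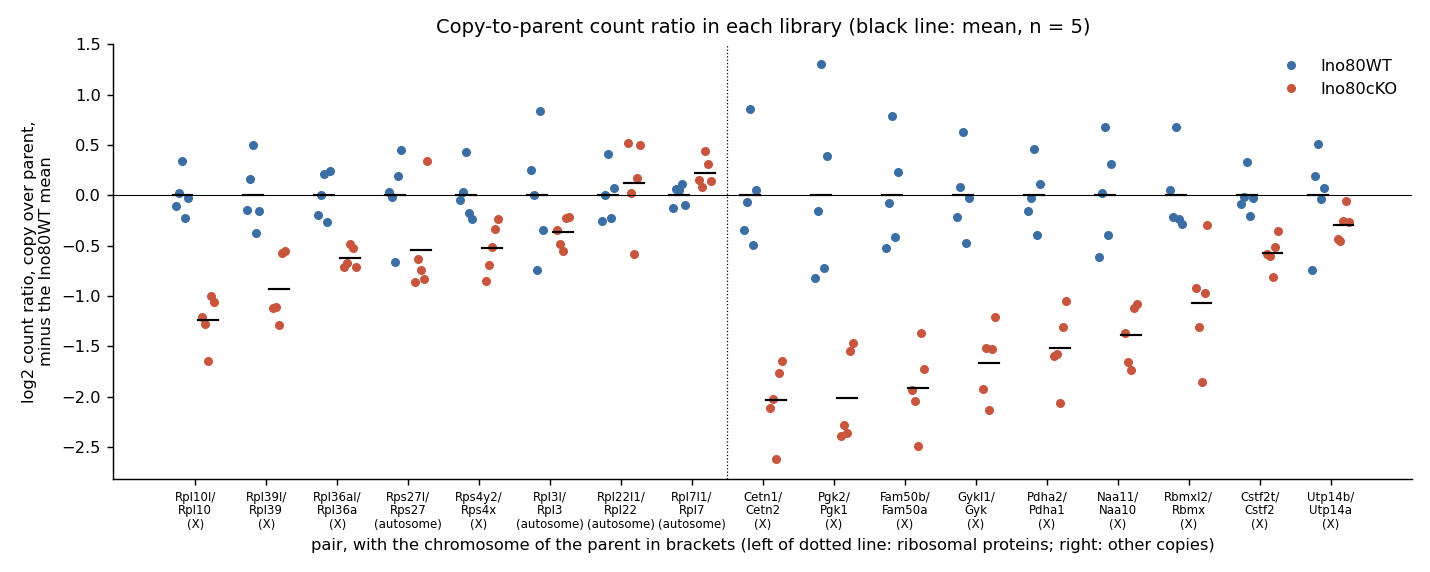
Log2 ratio of the counts of a copy to those of its parent in each library, minus the Ino80WT mean of that pair (y axis), for 8 ribosomal protein pairs and 9 other pairs (x axis; blue Ino80WT, red Ino80cKO, black lines the means, n = 5). For Rpl10l, Rpl39l, Rpl36al and Rps4y2 and for 8 of the 9 other pairs all or nearly all Ino80cKO libraries lie below all Ino80WT libraries; the ribosomal pairs with autosomal parents overlap between groups.

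Of the 4 X-linked members, Rpl10 rose, and Rpl36a, Rps4x and Rpl39 were not called. Their median was 0.15, where the 72 tested autosomal members other than paralogs had a median of -0.36, with 52 lower and 1 higher (Rpl34). Of the 599 X-linked genes in the test, 296 rose and 1 fell, and their median was 0.34. No test was made of 4 genes against 72.

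In the large subunit, leaving aside the stalk and the paralogs, 32 of 42 tested members fell and 2 rose, with a median of -0.39. Rpl36 fell from 126 to 77.2 CPM (log2 -0.70 ± 0.13 SE, adjusted p = 0.000822). Rpl37a was at 246, 177, 195, 189 and 193 CPM in Ino80WT and at 131, 126, 111, 120 and 141 CPM in Ino80cKO. Ino80WT 1 was far above the rest of its group, and the groups did not overlap (log2 -0.67 ± 0.10 SE, adjusted p = 0.000209). Rpl31 was at 159, 123, 133, 129 and 134 CPM in Ino80WT and at 90.0, 91.4, 85.1, 85.6 and 100 CPM in Ino80cKO, again without overlap (log2 -0.58 ± 0.08 SE, adjusted p = 0.000157). Rpl17 and Rpl32 fell by 0.63 and 0.62 on the log2 scale, and Rpl13 and Rpl11 by 0.58 and 0.55. Rpl11 belongs with 5S ribosomal RNA to the particle that restrains Mdm2, the p53 ubiquitin ligase; the other protein of that particle, Rpl5, fell by 0.33 (adjusted p = 0.0128). Rpl4, the most highly counted of this class in Ino80WT, fell from 786 ± 81.9 to 662 ± 46.2 CPM (SD, n = 5; log2 -0.25, adjusted p = 0.0333), a call kept in 6 of 17 alternative settings. It was lost without Ino80WT 1 or without Ino80cKO 1, 2, 3 or 4. Members of this class that were not called included Rpl28 (log2 -0.13, 95% interval -0.35 to 0.10) and Rpl14 (-0.23).

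In the small subunit 19 of 31 members fell, 0 rose and 12 were not called, with a median of -0.33. Rps24, which takes part in maturation of the small subunit RNA, was at 973, 637, 692, 705 and 733 CPM in Ino80WT and at 416, 447, 447, 412 and 464 CPM in Ino80cKO. The groups were far apart, and Ino80WT 1 stood above its own group. The mean fell from 748 ± 131 to 437 ± 22.3 CPM (SD, n = 5), 1.71-fold lower (log2 -0.77 ± 0.11 SE, adjusted p = 0.000158), the largest fall of any member that is no paralog. Rps15 and Rps14 fell by 0.51 and 0.50 on the log2 scale. At the other end, Rps2 was at 468 ± 55.5 and 463 ± 34.4 CPM (SD, n = 5; log2 -0.02, adjusted p = 0.898, 95% interval -0.19 to 0.16). Rps12 and Rps19 likewise had log2 differences of -0.06 and 0.03, with 95% intervals within -0.23 to 0.21. Rpsa, the small subunit protein also known as a laminin receptor precursor, fell by 0.27 (adjusted p = 0.0396). That call was lost without Ino80WT 1 or 4 or without Ino80cKO 1, 2, 3 or 4 (adjusted p up to 0.11), and held in 4 of 17 settings.

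Of the 3 stalk proteins, which recruit translation factors to the large subunit, 1 fell, with a median of -0.20. Rplp0, the base of the stalk, was at 1162, 983, 1021, 1007 and 1010 CPM in Ino80WT and at 903, 900, 834, 872 and 918 CPM in Ino80cKO, the highest level of any member in these libraries. Its groups did not overlap, and its fall of 0.23 on the log2 scale (adjusted p = 0.0224) was lost without Ino80cKO 3 or 4 (adjusted p = 0.087 and 0.0511) and in 6 further settings. Rplp1 (log2 -0.20, adjusted p = 0.104) and Rplp2 (log2 -0.08, adjusted p = 0.596) were not called.

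Across the 80 members with at least 10 CPM in a group, spread over 19 chromosomes, the size of the difference was not ordered by level or annotated length. The correlation of the log2 difference with the log2 level was 0.05 (Pearson) and 0.08 (Spearman), and with the log2 transcript length -0.01 and 0.03. These are descriptions over genes that share libraries. The log2 differences of these members had an SD of 0.23, and the median SE of one of them was 0.10.

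A few members were hardly counted. Rpl26 had 0 to 3 counts per library and was not tested, and Rpl30, Rps27 and Rpl34 were at 0.543 to 2.70 CPM in all libraries, where the median member at 10 CPM or more stood at 253 CPM in Ino80WT. Rpl34 was at 2.39, 1.96, 1.89, 1.39 and 1.49 CPM in Ino80WT and at 2.66, 2.51, 2.02, 2.70 and 2.67 CPM in Ino80cKO. Its rise (log2 0.47 ± 0.18 SE, adjusted p = 0.047) rests on these low counts and was lost without any 1 of Ino80WT 2 to 5 or Ino80cKO 1, 2, 4 or 5. Reads that aligned to more than 1 place made up 18.4% to 26.3% of each library and were not counted to genes. Ribosomal protein genes have many processed pseudogenes, so levels of single members are uncertain; how much each lost in this way was not tested.

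Other genes of protein synthesis were taken from lists of their own. Rps27a, itself a member, encodes ubiquitin fused to a ribosomal protein; it fell from 378 ± 44.0 to 259 ± 25.2 CPM (SD, n = 5; log2 -0.54, adjusted p = 0.000724). Fau, which encodes a ubiquitin-like protein fused to a ribosomal protein, was not called (log2 -0.15). Among 20 further mRNAs with a terminal oligopyrimidine tract, the element that couples translation of ribosomal protein mRNAs to growth signals, 10 fell and 2 rose, with a median of -0.22. Under total counts 7 fell and 2 rose, with a median of -0.04 where that of all genes was 0.19. Pabpc1, the cytoplasmic polyA-binding protein, fell from 2809 ± 546 to 1564 ± 217 CPM (SD, n = 5; log2 -0.84, adjusted p = 0.000469), Nap1l1 by 0.59 and Btf3 by 0.47. The 2 that rose, Hnrnpa1 (log2 0.39) and Vim (0.34), were picked out after their values were seen.

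Translation factors were lower in 29 of 53 tested and higher in 3, with a median of -0.24; with libraries scaled by total counts 16 fell, 12 rose and the median was -0.07, and with upper-quartile scaling 19 and 11. Under these scalings 35.9% and 32.0% of all genes were higher, and the medians of all genes were 0.19 and 0.15. Eif3e, a subunit of the initiation factor that binds the small ribosomal subunit, fell by 0.67, Eif2b5 by 0.65, Eef1e1 by 0.59 and the cap-binding Eif4e by 0.43 on the log2 scale. The 3 that rose were the X-linked Eif2s3x and Gspt2 and the autosomal Pabpc4 (log2 0.36, 0.39 and 0.40), named after their values were seen. Proteins of the mitochondrial ribosome, a separate particle encoded by 76 nuclear genes here, fell in 48 and rose in 0, with a median of -0.30. Under total counts 26 fell and 2 rose, with a median of -0.13 where that of all genes was 0.19. Mrpl24 fell from 117 ± 10.1 to 65.2 ± 4.91 CPM (SD, n = 5; log2 -0.84, adjusted p = 3.91e-05), Mrpl39 by 0.82, Mrpl35 by 0.80 and Mrpl22 by 0.60. The summed level of this list was 3102 to 3822 CPM in Ino80WT and 2515 to 2685 CPM in Ino80cKO. Ino80WT 1 gave the top value, and the other Ino80WT libraries were at 3102 to 3321 CPM. Without Ino80WT 1, 41 of the list fell and 1 rose, with a median of -0.22.

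**Figure D5:**
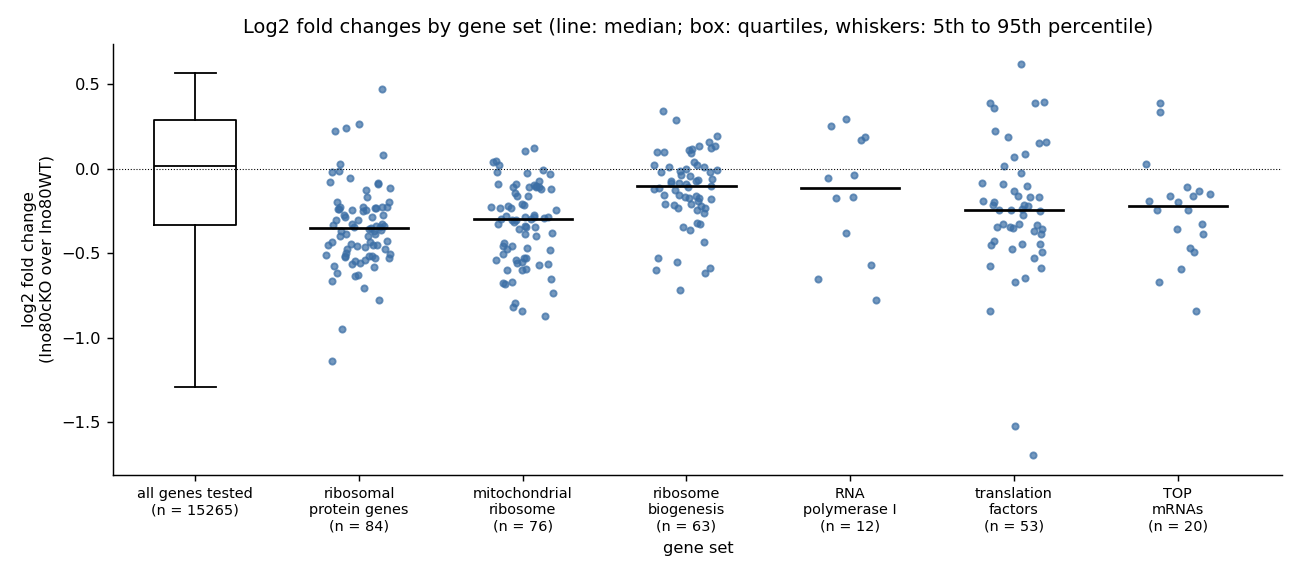
Log2 difference between Ino80cKO and Ino80WT (y axis) for single genes (points) of the ribosomal protein members and 5 lists of protein synthesis genes (x axis), with each list's median (line), beside all 15265 genes tested (box, quartiles; whiskers, 5th to 95th percentile). The medians are -0.35 for the members, -0.30 for the mitochondrial ribosome, -0.24 for translation factors and -0.22 for other TOP mRNAs, and those of ribosome biogenesis (-0.10) and RNA polymerase I (-0.11) change sign when libraries are scaled by total counts. That scaling also moves the median of all genes tested, from 0.02 to 0.19.

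Of 63 ribosome biogenesis factors, which build ribosomes, 20 fell and 2 rose, where 27.6% of all genes tested were lower and 18.3% higher. The median of these factors was -0.10, which turned to 0.08 with 7 lower and 14 higher when libraries were scaled by total counts. Under that scaling 19.2% of all genes tested were lower and 35.9% higher. The median of all genes moved up as well, from 0.02 to 0.19. Wdr12 (log2 -0.72) and Ddx52 (-0.60), which act in large and small subunit assembly, Nop10 (-0.53) and Utp18 (-0.43) fell in all 17 alternative settings. The 2 that rose, Utp15 (0.29) and Tsr2 (0.34), were picked out after their values were seen. Of 12 genes of RNA polymerase I and its factors, which transcribe the ribosomal RNA precursor, 5 fell and 2 rose (Ubtf, log2 0.29, and Taf1c, 0.25), with a median of -0.11 that became 0.06 with 4 lower and 4 higher under total counts. The median of all genes was 0.19 under that scaling. Taf1b fell from 118 ± 12.8 to 68.8 ± 4.75 CPM (SD, n = 5; log2 -0.78, adjusted p = 5.93e-05), Polr1c by 0.65, Polr1d by 0.57 and Polr1e by 0.38. The precursor Rn45s itself was not called (log2 -0.66, adjusted p = 0.163), and polyA selection does not measure it well. Its difference ran from -0.86 without Ino80WT 4, where it was called (adjusted p = 0.0482), to -0.26 without Ino80WT 1.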

How the data were processed

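The authors deposited raw read counts per gene for 10 libraries, whole numbers without normalization. TopHat2, HTSeq and DESeq2 are listed without versions, together with mm10 (GRCm38), per the submitters' processing notes. Annotation and strand handling during counting: not given in the sources used here, so reads of overlapping antisense genes cannot be told apart. Libraries were made with a stranded kit, per the labels. Each file held 23420 gene names and 5 entries that name no gene; the latter took 35.5% to 44.0% of reads and were left out before library sizes were computed.

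The test was edgeR 4.0.16 (R 4.3.3) over all genes (filterByExpr with a minimum count of 10 and a minimum total of 15, TMM factors, quasi-likelihood model with genotype only, robust dispersions), with Benjamini-Hochberg adjustment over 15265 genes and a threshold of 0.05. Members were read from that fit. Ratios of a copy to its parent were log2((copy + 0.5)/(parent + 0.5)) of the counts and were compared by an exact two-sided permutation test. Levels per kilobase used 1 principal GENCODE transcript per gene; all 85 members matched RefSeq (GRCm38.p6) and had a length. In simulated counts over 15159 genes, 81.4% of genes changed by 1 on the log2 scale and 42.3% of those changed by 0.5 were called, 0 in the wrong direction; 5.51% of calls were of unchanged genes. Few genes were changed in that simulation, as many up as down, while 45.9% of genes were called in the data. It therefore did not test the choice of scaling between libraries.

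The members, gene lists and pairs were chosen with earlier results of these data known. Genes were named by rule: paralogs and parents, stalk proteins and Rpsa, members with the smallest adjusted p in each direction (up to 8) or the extremes of level and difference, X-linked members, and up to 4 genes per list with the smallest adjusted p. Other members are named in passing after their values were seen. Alternatives were DESeq2 1.42.0, no filter, upper-quartile scaling, scaling by total counts with and without Rn45s, a replicate block, leaving out Ino80WT 1 and 2, leaving out each library in turn and, for the ratios, adding 2 counts. Values of a few single genes are left out of the text, and counts over all genes or members include them.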

Additional observations from a re-analysis of the deposited data

Results flagged for a closer look

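In 10 of 100 groups of 5 libraries looked at, 1 library lay further from the rest than Dixon's 95% limit allows; chance gives about 1 in 20. In 7 of the 10, Ino80WT 1 was high. It stood at 1162 CPM for Rplp0 (others 983 to 1021), 973 for Rps24 (637 to 733), 928 for Rpl4 (720 to 766), 597 for Rpsa (427 to 462), 502.9 for Rpl3 (399 to 414), 416 for Rplp1 (311 to 328) and 246 for Rpl37a (177 to 195). Rps24 and Rpl37a were also called lower without that library, Rpsa and Rpl4 were not, and Rpl3 and Rplp1 were not called with it either. Rpl36al was at 70.2 CPM in Ino80cKO 2 (others 63.9 to 65.4), still below all Ino80WT libraries. Rpl34 was at 2.02 CPM in Ino80cKO 3 (others 2.51 to 2.70). The log2 ratio of Rps27l to the hardly counted Rps27 was 6.88 in Ino80cKO 5 (others 5.68 to 5.91).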

How the results depend on the processing

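Of the 84 tested members 58 were lower and 2 higher (median -0.35). Lower calls numbered 32 with libraries scaled by total counts, 33 with total counts without Rn45s and 35 with upper-quartile scaling, where the median of all genes moved up by 0.17, 0.16 and 0.14; the members' median was -0.18 under total counts. DESeq2 gave 53, no filter 50, and 47 to 60 were lower when 1 library was left out (0 to 3 higher, median -0.39 to -0.25). Higher calls numbered 1 with no filter and 1 with the replicate block. Replicate numbers occur in both groups, but same-numbered libraries deviated together in only 2 of 5 pairs (correlations -0.47 to 0.20), and only number 1 correlated best with its own, so the numbers were not taken as pairing; with the replicate block 49 members were lower, with a median of -0.35.

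Among ratios of copy to parent, leaving out Ino80WT 1 and 2 left 8 libraries, which limits the smallest p of the exact permutation test. Rpl10l was then at -1.27, Rpl39l at -0.92, Rpl36al at -0.68 and Rps4y2 at -0.53 (adjusted p = 0.0714 each, exact permutation test). Rpl7l1 was at 0.20 (0.171) and Rbmxl2 at -1.12 (0.0536). Utp14b passed at -0.47 (0.0201) under the same limit, so the limit alone does not account for the lost calls. With 1 library left out, ratios that lost or gained a call ranged from 0.17 to 0.26 for Rpl7l1, from -0.77 to -0.43 for Rps27l, from -0.55 to -0.16 for Rpl3l and from -0.48 to -0.16 for Utp14b. Of 204 ratio values 189 kept direction and call, 10 lost and 5 gained the call, and 0 changed sign.

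Of 1190 single-gene values 1053 kept direction and call, 89 lost it, 18 gained it and 30 changed sign, the last all of genes without a call. Under total counts, total counts without Rn45s and upper quartile, Rplp2 was at 0.094, 0.076 and 0.052, Rps2 at 0.16, 0.14 and 0.12, Gyk at 0.16, 0.14 and 0.12 and Utp14b at 0.059, 0.047 and 0.021. Under total counts Rpl3 was at 0.0049 and Fau at 0.027, and without Rn45s Fau was at 0.0095. Without Ino80WT 1 and 2, Rplp2 was at 0.046, Rps2 at 0.11 and Rn45s at 0.13. DESeq2 gave 0.017 for Rps2 and 0.010 for Gyk, and no filter 0.0086 and 0.0029. With 1 library left out, Rplp2 ranged from -0.15 to 0.023, Rps2 from -0.066 to 0.076, Utp14b from -0.21 to 0.0038, and Gyk from -0.079 to 0.055. The cause was not tested.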

Other observations

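Marker lists of the cells that these preparations can hold moved as follows in Ino80cKO, beside the pachytene, Sertoli and leukocyte lists given above; their part in the differences of the ribosomal protein genes was not tested. Early prophase markers fell in 6 of 9 and rose in 0, with a median log2 difference of -0.44. Of spermatid markers 4 of 12 had enough counts to be tested and 2 of these fell. Of 10 markers of undifferentiated spermatogonia 1 was higher and 1 lower, and of 8 markers of differentiating spermatogonia 2 were higher and 2 lower. Among all genes tested 18.3% were higher and 27.6% lower, and these small lists were not read as changed. Leydig cell markers rose in 3 of 5 tested. Of 5 peritubular markers 1 was higher, near the share of all genes, and 0 were with the replicate block or without any 1 of Ino80WT 2, 3 or 4 or Ino80cKO 1, 2, 3 or 4. Higher calls numbered 4 under total counts, where 35.9% of all genes were higher, and 3 under total counts without Rn45s. They numbered 2 under DESeq2, under upper-quartile scaling, without Ino80WT 1 and without Ino80cKO 5. Endothelial markers (5 tested) and erythroid markers (2 tested) had 0 calls by the main edgeR test. Of the endothelial markers 1 was called higher under DESeq2, total counts with or without Rn45s, upper-quartile scaling or without Ino80cKO 5.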
